A study of Mus musculus with 40 samples.

Results

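The 10 genes described here encode enzymes that make serine, glycine and one-carbon units (*Phgdh*, *Psat1*, *Psph*, *Shmt2*, *Mthfd2*), asparagine (*Asns*), alanine (*Gpt2*), proline (*Aldh18a1*, *Pycr1*) and cysteine (*Cth*). They were listed by name out of the 55536 genes counted and were selected on their changes with ATR inhibition and with loss of the CDK8 kinase module in these libraries, so those changes are given as a description and not as a test. RNA was sequenced from mouse embryonic stem cells (mESCs) that were wild-type (WT, 2 biological replicates, WT_1 and WT_2), *Ccnc* knockout (KO, clones CCNC_D1, CCNC_G2 and CCNC_H5) or *Cdk8* KO (clones CDK8_B9, CDK8_H4 and CDK8_C8). Each replicate or clone gave 1 library after 4 h in DMSO and 1 after 4 h in 900 nM AZD6738, an inhibitor of the replication-stress kinase ATR (ATRi). The WT libraries were sequenced alongside the *Ccnc* KO libraries and again alongside the *Cdk8* KO libraries, which gave 20 libraries in 2 multiplexes. All cells were grown in serum and LIF with added pyruvate and non-essential amino acids. *Ccnc* encodes Cyclin C and *Cdk8* its partner kinase in the Mediator complex of RNA polymerase II, and each KO clone is a separate line from 1 founder cell, so clone and genotype are seen only through 3 lines per gene.

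Serine is made from the glycolytic intermediate 3-phosphoglycerate by PHGDH, PSAT1 and PSPH in sequence. SHMT2 then splits serine into glycine and a folate-bound carbon inside mitochondria, and MTHFD2 oxidises that carbon for use in purine and thymidine synthesis, which dividing stem cells need in quantity. Many of these genes carry binding sites for ATF4, a transcription factor whose translation rises when amino acids run short, and TRIB3 is a pseudokinase encoded by a well-known ATF4 target gene.

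The libraries held between 30899823 and 67274049 counts, and the 10 genes between 338 and 20481 counts each. The ATRi library of WT replicate 2 stood apart, with 3.22% and 3.32% of counts from mitochondrial genes in the 2 multiplexes against 1.10% to 2.16% in all others, and the study left it out. It is left out of the fits here too. In each pair of WT values under ATRi given below, the second is this library, and the WT ranges of *Ccnc* and of the cell type markers include it. The labels do not say whether a WT sample in both multiplexes is 1 library or was prepared again from the same RNA, and its values differed between them by a median of 0.035 and at most 0.13 log2 units for the 10 genes. *Ccnc* was at 4.24 to 7.40 CPM (gene counts scaled by TMM-adjusted library size) in *Ccnc* KO clones and 39.6 to 45.1 CPM in WT of the same multiplex. *Cdk8* was at 52.3 to 64.6 CPM in *Cdk8* KO clones, below the 71.2 to 78.6 CPM of the 3 WT libraries fitted, and at 57.7 CPM in the WT library left out. The differences were small, -0.21 to -0.45 log2 units in the KO clones. Of 10 pluripotent cell markers, all were detected in every library, and their summed level was 4901 to 5374 CPM in WT (5018 to 5374 CPM in the *Ccnc* multiplex), 4406 to 5014 CPM in *Ccnc* KO and 3754 to 4722 CPM in *Cdk8* KO clones. The 9 primitive endoderm markers summed to 127 to 147 CPM in WT, 201 to 333 CPM in *Ccnc* KO and 360 to 564 CPM in *Cdk8* KO clones, with none at 0. Most of this sum came from *Lama1* (64.5 to 176 CPM over all libraries), *Col4a1* (37.9 to 254 CPM) and *Dab2* (4.19 to 86.5 CPM). *Gata6*, *Gata4*, *Sox17*, *Sox7*, *Pdgfra* and *Foxa2* were each at 12.6 CPM or less in every library. The 8 fibroblast markers were low but also higher in KO clones without overlap, with sums of 3.95 to 5.56 CPM in WT, 6.50 to 11.1 CPM in *Ccnc* KO and 7.24 to 23.5 CPM in *Cdk8* KO clones. Of these *Col1a1*, *Col1a2* and *Thy1* were at 0 in no library, and *Lum* was at 0 in 18, *Postn* in 13 and *Col3a1* in 9. The 5 trophectoderm markers summed to 3.38 to 6.81 CPM in WT and 6.997 to 9.06 CPM in *Ccnc* KO clones of the *Ccnc* multiplex. In the other multiplex they summed to 3.65 to 7.28 CPM in WT and 6.38 to 16.2 CPM in *Cdk8* KO clones. The 7.28 CPM was that of the WT library left out, and the other WT libraries there were at 4.52 CPM or less. Neuroectoderm markers summed to 151 to 165 CPM in WT and 128 to 150 CPM in *Ccnc* KO clones, and to 146 to 160 and 138 to 183 CPM in the *Cdk8* multiplex.

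Per kilobase of exon, the 10 genes spanned a wide range in WT cells under DMSO. In the *Ccnc* multiplex *Asns* was highest at 111 ± 1.69 CPM per kb (SD, n = 2), followed by *Psat1* at 92.0 ± 2.17, *Shmt2* at 83.1 ± 0.77 and *Mthfd2* at 40.9 ± 4.74 CPM per kb. *Aldh18a1* was at 19.3 ± 0.53, *Phgdh* at 18.3 ± 0.33, *Cth* at 14.8 ± 0.26, *Gpt2* at 10.4 ± 0.13, *Psph* at 9.34 ± 1.09 and *Pycr1* at 5.12 ± 0.083 CPM per kb. The first enzyme of serine synthesis, PHGDH, was thus encoded at a lower level than the second, PSAT1. *Gpt2* and *Psph* overlapped between replicates in the *Cdk8* multiplex, and no other neighbours in this order did in either multiplex. On the same scale some isozymes, named after their values were seen, were more abundant than the member they resemble. *Pycrl* was at 49.2 ± 1.14 CPM per kb, against 5.12 for *Pycr1*. *Shmt1*, the cytosolic form of SHMT2, was at 96.5 ± 0.91 CPM per kb. *Gpt*, the cytosolic alanine aminotransferase, was at 2.29 ± 0.23 and *Mthfd2l* at 0.83 ± 0.20 CPM per kb, both below the member they resemble.

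The 10 genes lie on 7 chromosomes of GRCm38, all but *Gpt2* on the minus strand. *Gpt2* (ENSMUSG00000031700) is at chr8:85492576-85527560, *Pycr1* (ENSMUSG00000025140) at chr11:120635712-120643769 and *Asns* (ENSMUSG00000029752) at chr6:7675169-7693254. *Mthfd2* is at chr6:83305691-83325908 and *Cth* at chr3:157894248-157925077, the chromosome that also holds *Phgdh* at chr3:98313170-98339990. *Psat1* is at chr19:15904678-15947337, *Aldh18a1* at chr19:40550257-40588463, *Psph* at chr5:129765558-129787449 and *Shmt2* at chr10:127517123-127522444. *Phgdh* has a like-named pseudogene, *Phgdh-ps1*, with which reads could be shared. RefSeq promoter windows on GRCm38.p6, which run from 250 bases before to 50 bases after a start, were found for 9 of the 10 genes. The core of the element that ATF4 and C/EBP factors bind, TGATGNAA, was searched on both strands. It was present in 2 of the 10 windows (*Psat1* has 2), those of *Asns* and *Pycr1*, and in 1304 of all 32851 RefSeq windows (3.97%). The 3 windows below are those of both genes with a match, set in capitals, and that of *Gpt2*, which had the largest change with ATRi and no match. They are written 5′ to 3′ on the gene's strand, at chr6:7693160-7693459 (minus), chr11:120643699-120643998 (minus) and chr8:85492326-85492625 (plus). The match begins 23 bases before the start in *Asns* and 103 bases before it in *Pycr1*.
Asns: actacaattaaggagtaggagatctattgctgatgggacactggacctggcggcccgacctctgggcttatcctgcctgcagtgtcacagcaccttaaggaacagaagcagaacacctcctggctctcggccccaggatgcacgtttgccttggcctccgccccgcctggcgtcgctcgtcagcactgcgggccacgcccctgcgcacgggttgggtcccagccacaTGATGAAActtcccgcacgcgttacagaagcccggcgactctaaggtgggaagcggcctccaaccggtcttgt
Pycr1: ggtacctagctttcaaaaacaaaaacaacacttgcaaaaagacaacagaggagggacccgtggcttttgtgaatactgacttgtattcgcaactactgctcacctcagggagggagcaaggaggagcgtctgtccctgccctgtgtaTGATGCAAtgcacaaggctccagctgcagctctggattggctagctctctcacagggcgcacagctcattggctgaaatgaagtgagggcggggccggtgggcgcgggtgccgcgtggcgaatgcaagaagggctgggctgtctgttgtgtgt
Gpt2: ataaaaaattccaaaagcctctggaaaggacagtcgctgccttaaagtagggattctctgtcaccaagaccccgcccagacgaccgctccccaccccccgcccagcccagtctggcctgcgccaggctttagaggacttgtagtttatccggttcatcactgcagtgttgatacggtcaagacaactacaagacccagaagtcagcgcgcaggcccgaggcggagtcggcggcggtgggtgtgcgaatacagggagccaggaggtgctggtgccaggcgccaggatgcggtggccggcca

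ATRi against DMSO was compared to see what 4 h of ATR inhibition changes beside genotype. *Gpt2*, the mitochondrial alanine aminotransferase, was lower under ATRi in every clone and replicate. In the *Ccnc* multiplex it was at 59.1 and 58.1 CPM in WT under DMSO and at 41.3 and 35.1 CPM under ATRi, the last being the library left out. Clones CCNC_D1, CCNC_G2 and CCNC_H5 were at 45.9, 37.3 and 40.1 CPM under DMSO and at 29.5, 26.7 and 27.4 CPM under ATRi. In the *Cdk8* multiplex WT was at 58.9 and 55.8 CPM under DMSO and at 39.7 and 36.7 CPM under ATRi. Clones CDK8_B9, CDK8_H4 and CDK8_C8 were at 46.2, 43.4 and 45.0 CPM under DMSO and at 28.6, 27.4 and 29.9 CPM under ATRi. The 3 *Cdk8* KO libraries and the WT library under ATRi lay below all 5 DMSO libraries of their multiplex. The fitted difference was -0.54 ± 0.07 log2 units (SE) in the *Ccnc* and -0.61 ± 0.05 in the *Cdk8* multiplex, and -0.48 to -0.69 in single KO clones. Fewer cells that express a gene and less RNA per cell cannot be told apart in these bulk libraries, here or below.

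*Mthfd2*, the mitochondrial folate dehydrogenase, had the next largest change, at -0.31 ± 0.06 and -0.33 ± 0.09 log2 units (SE) in the *Ccnc* and *Cdk8* multiplexes. In the *Ccnc* multiplex it was at 154 and 131 CPM in WT under DMSO and at 119 and 81.0 CPM under ATRi. The *Ccnc* KO clones, in the order above, were at 135, 137 and 131 CPM under DMSO and at 111, 106 and 104 CPM under ATRi. All ATRi libraries of that multiplex lay below all its DMSO libraries. In the *Cdk8* multiplex WT was at 157 and 129 CPM under DMSO and at 117 and 80.2 CPM under ATRi. The *Cdk8* KO clones were at 149, 118 and 159 CPM under DMSO and at 112, 101 and 120 CPM under ATRi. There CDK8_H4 under DMSO overlapped the ATRi libraries, and its own change of -0.22 log2 units was the smallest of the 6 KO clones.

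The remaining proline and serine genes had smaller differences. *Aldh18a1*, which encodes the enzyme for the first step of proline synthesis from glutamate, was at -0.27 ± 0.07 and -0.23 ± 0.05 log2 units. It was at 65.6 to 80.2 CPM under DMSO and 51.5 to 67.8 CPM under ATRi in the *Ccnc* multiplex, and at 62.7 to 79.1 and 56.2 to 66.2 CPM in the *Cdk8* multiplex. *Psat1*, the serine aminotransferase, was lower by a like amount in each KO clone, with changes of -0.14 to -0.21 log2 units (fitted changes -0.17 ± 0.05 and -0.18 ± 0.04). *Psph*, the phosphatase of the last serine step, was at -0.08 ± 0.07 and -0.20 ± 0.11. *Pycr1*, which encodes the enzyme for the last proline step, was at -0.16 ± 0.08 and -0.20 ± 0.12. Its change in single KO clones ran from -0.40 in CDK8_B9 to 0.05 in CDK8_H4, and was -0.34 and -0.24 in WT replicate 1. *Shmt2* at -0.05 ± 0.06 and -0.05 ± 0.09, *Asns* at -0.04 ± 0.05 and 0.02 ± 0.09, and *Cth* at 0.01 ± 0.07 and 0.06 ± 0.10 had changes within 1 SE of 0. *Asns* encodes asparagine synthetase and *Cth* cystathionine gamma-lyase, the last enzyme of cysteine synthesis.

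*Phgdh*, the entry enzyme of serine synthesis, differed most between clones. In the *Ccnc* KO clones it was at 36.9, 43.4 and 48.5 CPM under DMSO and at 48.5, 43.6 and 43.6 CPM under ATRi, so CCNC_D1 was 31.4% higher under ATRi and CCNC_H5 lower. In WT of that multiplex it was at 46.0 and 44.8 CPM under DMSO and at 38.9 and 27.6 CPM under ATRi. CCNC_D1 under DMSO also held the largest mitochondrial share among the libraries that were fitted, 2.16%, and its part in this value was not tested. The *Cdk8* KO clones were at 50.3, 46.0 and 48.4 CPM under DMSO and at 44.3, 37.9 and 41.2 CPM under ATRi, lower in each clone. The change was -0.22 ± 0.06 log2 units (SE) in the *Cdk8* multiplex and -0.02 ± 0.08 in the *Ccnc* multiplex, where it was 0.08 without WT replicate 1 and -0.14 without CCNC_D1.

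**Figure D1:**
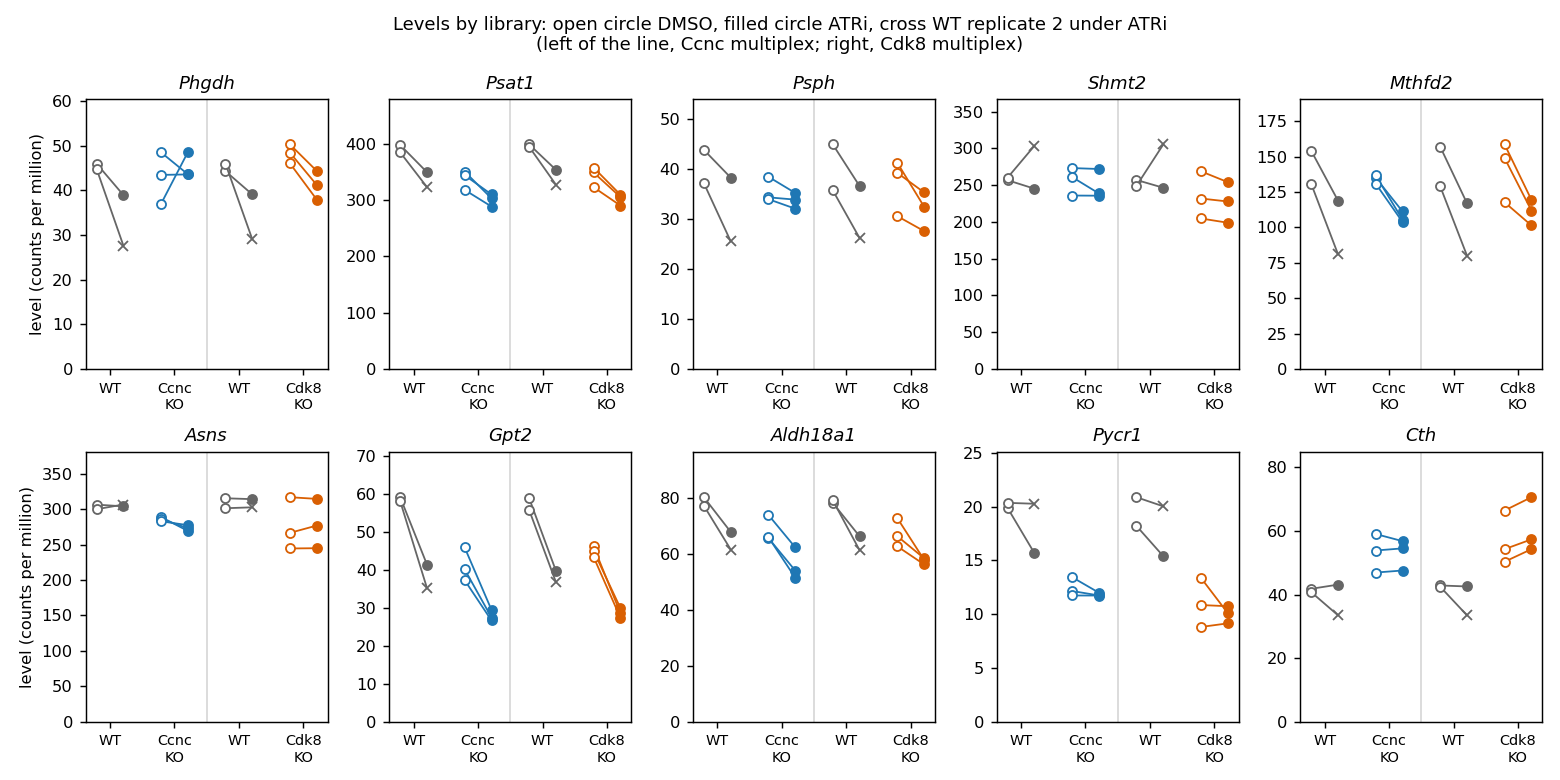
Level of each gene in CPM (vertical axes, from 0) in every library, with DMSO (open) and ATRi (filled) of 1 clone or replicate joined by a line. *Gpt2* sits at 37.3 to 59.1 CPM under DMSO and 26.7 to 41.3 CPM under ATRi in the *Ccnc* multiplex, and the cross marks WT replicate 2 under ATRi, which was left out of the fits.

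By edgeR's quasi-likelihood test, adjusted over all genes by the Benjamini-Hochberg method, 2 of the 10 genes (*Gpt2* and *Mthfd2*, both lower) had an adjusted p under 0.05 in the *Ccnc* multiplex, where 1.11% of 18577 genes did and 0.743% were lower. *Gpt2* alone did in the *Cdk8* multiplex, where 0.0855% of 18721 genes did and 0.0481% were lower. Nothing is read from these counts, since the genes were chosen with this contrast known. The median change of the 10 genes was -0.12 log2 units beside *Ccnc* KO and -0.20 beside *Cdk8* KO, and that of all genes -0.01 in both. *Psat1*, *Psph*, *Shmt2*, *Mthfd2*, *Aldh18a1* and *Gpt2* were lower under ATRi in all 6 KO clones, as were 9.26% of all genes. ATRi and DMSO libraries did not overlap for *Mthfd2* in the *Ccnc* multiplex and *Gpt2* in the *Cdk8* multiplex, each lower under ATRi, where 2.91% and 2.21% of all genes were lower without overlap. With the clone as a replicate block, 3 of the 10 genes were called in the *Ccnc* multiplex (*Gpt2*, *Mthfd2*, *Aldh18a1*; 2.43% of all genes) and 6 in the *Cdk8* multiplex (11.3% of all genes). The 6 were *Gpt2*, *Mthfd2*, *Aldh18a1*, *Psat1*, *Psph* and *Phgdh*. *Gpt2* was not called in the *Cdk8* multiplex without CDK8_C8 or without WT replicate 1, where no gene of the 10 was. *Mthfd2* was not called in the *Ccnc* multiplex without CCNC_G2, CCNC_H5 or WT replicate 1, nor with WT replicate 2 under ATRi included.

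Within the KO clones alone, 6 libraries each, *Gpt2* was at -0.56 ± 0.09 log2 units (SE) in *Ccnc* KO and -0.65 ± 0.06 in *Cdk8* KO. None of the 10 genes was called in either, by edgeR's quasi-likelihood test, where 0.0894% of 16776 and 0% of 17162 genes were. At an unadjusted p under 0.05 these were 4 and 5 of the 10 genes, and DESeq2 called 2 and 1. With the clone as a replicate block, 1 gene was called in *Ccnc* KO (*Gpt2*; 0.650% of all genes) and 6 in *Cdk8* KO (6.95% of all genes).

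**Figure D2:**
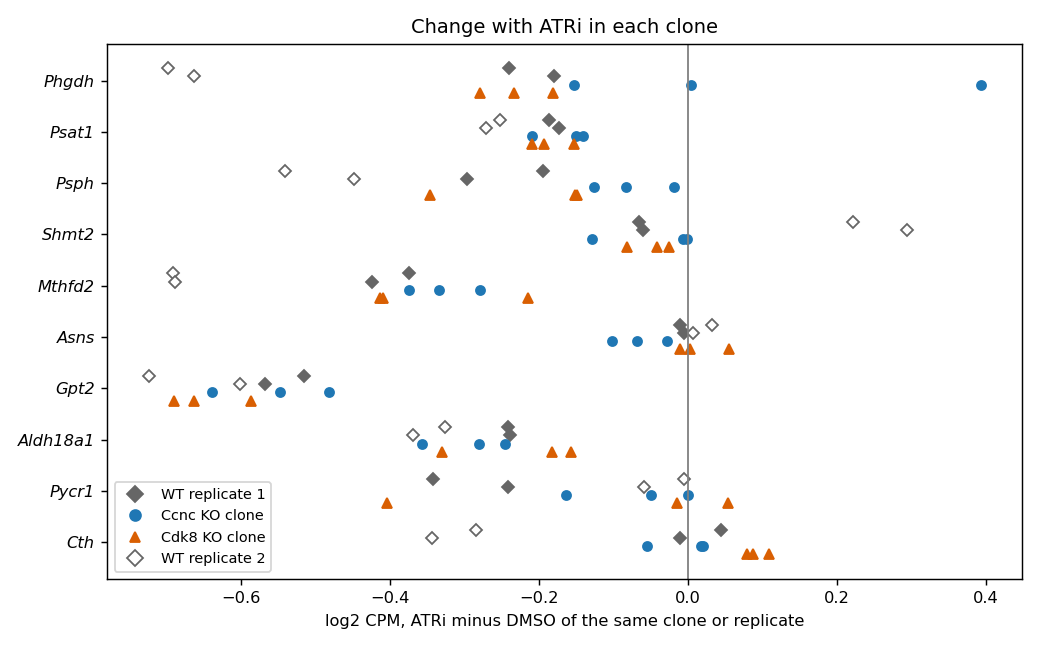
Difference in log2 CPM between ATRi and DMSO (horizontal axis) for each gene in each KO clone and each sequencing of the WT replicates. *Gpt2* lies left of 0 at -0.48 to -0.69 in the 6 KO clones, and *Phgdh* runs from -0.28 to 0.39.

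Summed over the 10 genes, the level in WT under DMSO was 1354 to 1416 CPM. In the *Ccnc* KO clones it was 1298, 1250 and 1258 CPM under DMSO and 1189, 1129 and 1153 CPM under ATRi. The *Cdk8* KO clones were at 1360, 1148 and 1277 CPM under DMSO and at 1219, 1064 and 1161 CPM under ATRi. Each clone was lower under ATRi than under DMSO, and CDK8_H4 was lowest in both. *Asns*, *Psat1* and *Shmt2* carry most of this sum, so the other 7 genes weigh little in it.

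KO clones were next compared with WT beside treatment. *Pycr1*, which encodes a mitochondrial pyrroline-5-carboxylate reductase, had the largest difference, at -0.58 ± 0.08 log2 units (SE) in *Ccnc* KO and -0.75 ± 0.13 in *Cdk8* KO. It was at 19.9 and 20.4 CPM in WT under DMSO of the *Ccnc* multiplex and at 15.7 and 20.3 CPM under ATRi. The *Ccnc* KO clones were at 12.2, 13.5 and 11.7 CPM under DMSO and at 11.8, 12.01 and 11.7 CPM under ATRi. In the *Cdk8* multiplex WT was at 18.2 and 20.9 CPM under DMSO and at 15.4 and 20.0 CPM under ATRi. The *Cdk8* KO clones were at 13.4, 8.81 and 10.9 CPM under DMSO and at 10.1, 9.15 and 10.7 CPM under ATRi. Every KO library lay below every WT library of its multiplex, with CDK8_H4 the lowest.

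*Gpt2* was also lower in KO clones, at -0.53 ± 0.07 log2 units (SE) for *Ccnc* KO and -0.40 ± 0.05 for *Cdk8* KO. Under DMSO, from the values above, the KO clones of each multiplex lay below both WT replicates, and WT replicate 1 under ATRi lay among the *Ccnc* KO clones under DMSO and below the *Cdk8* KO clones under DMSO. *Cth* differed the other way, at 0.35 ± 0.08 and 0.45 ± 0.11 log2 units. It was at 41.8 and 40.8 CPM in WT under DMSO and at 43.1 and 33.5 CPM under ATRi in the *Ccnc* multiplex. The *Ccnc* KO clones were at 46.9, 53.9 and 59.1 CPM under DMSO and at 47.6, 54.5 and 56.8 CPM under ATRi. In the *Cdk8* multiplex WT was at 42.9 and 42.5 CPM under DMSO and at 42.6 and 33.5 CPM under ATRi. The *Cdk8* KO clones were at 54.3, 66.4 and 50.3 CPM under DMSO and at 57.4, 70.6 and 54.3 CPM under ATRi. Every KO library was above every WT library, and CDK8_H4 was the highest.

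*Psat1* was at -0.21 ± 0.05 and -0.22 ± 0.04 log2 units against WT, and *Aldh18a1* at -0.23 ± 0.07 and -0.22 ± 0.05. Under DMSO, both were lower in all KO clones than in both WT replicates of their multiplex. *Psat1* was at 318 to 351 CPM in *Ccnc* KO against 385 to 398 CPM in WT, and at 323 to 358 CPM in *Cdk8* KO against 395 to 399 CPM. *Asns* was at -0.11 ± 0.05 in *Ccnc* KO, with 269 to 289 CPM in every KO library against 300 to 306 CPM in WT, the range of the 3 WT libraries fitted. In *Cdk8* KO it was at -0.17 ± 0.09 and the groups overlapped, with CDK8_B9 at 317 and 314 CPM and CDK8_H4 at 244 and 245 CPM. *Psph* was at -0.18 ± 0.07 and -0.16 ± 0.12, *Mthfd2* at -0.11 ± 0.06 and -0.04 ± 0.10, *Shmt2* at 0.01 ± 0.06 and -0.11 ± 0.09 and *Phgdh* at 0.04 ± 0.09 and 0.09 ± 0.06 log2 units.

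**Figure D3:**
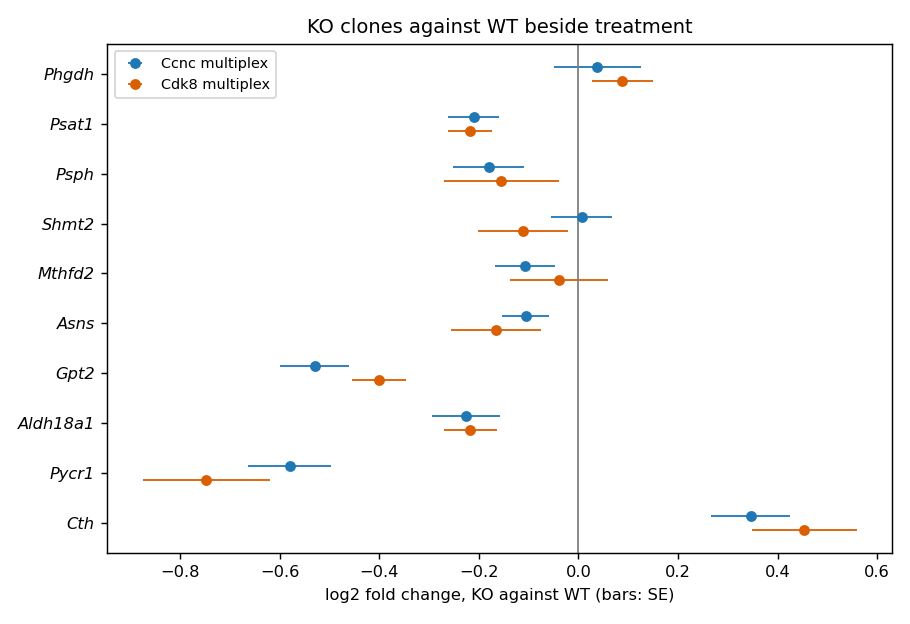
Log2 fold change of KO clones against WT beside treatment (horizontal axis, bars 1 SE) for each gene in both multiplexes. *Pycr1* lies lowest at -0.58 and -0.75, and *Cth* highest at 0.35 and 0.45.

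None of the 10 genes met the study's rule of an adjusted p under 0.05 and a change of over 2-fold up or to under 0.5 of the WT level, which 1.94% of genes met in the *Ccnc* and 1.05% in the *Cdk8* multiplex. At an unadjusted p under 0.05 they were 7 and 5, and DESeq2 also called 0 under the rule. At the adjusted p alone, 4 genes were lower (*Pycr1*, *Gpt2*, *Psat1*, *Aldh18a1*) and *Cth* higher in each multiplex, where 12.3% and 4.31% of all genes passed. Of all genes 5.28% and 2.03% passed as lower, and 7.01% and 2.28% as higher. With the clone as a replicate block, a random effect in limma voom, 3 were lower and *Cth* higher in the *Ccnc* multiplex (10.1% of all genes) and 2, *Pycr1* and *Gpt2*, were lower in the *Cdk8* multiplex (1.27% of all genes). With WT replicate 2 under ATRi included, *Aldh18a1* no longer passed in either multiplex. Without CCNC_G2 the genes passing for *Ccnc* KO were 3, with *Psat1* and *Aldh18a1* lost. Without WT replicate 1 the genes passing were 1 (*Pycr1*) for *Ccnc* KO and 0 for *Cdk8* KO, and without WT replicate 2 or CDK8_C8 *Gpt2* alone passed for *Cdk8* KO. In DMSO libraries alone *Pycr1* and *Gpt2* passed for *Ccnc* KO and 0 genes for *Cdk8* KO. KO and WT libraries did not overlap for *Pycr1* and *Asns* (lower) and *Cth* (higher) in the *Ccnc* multiplex, where 7.08% and 7.65% of all genes were lower or higher without overlap. The genes without overlap in the *Cdk8* multiplex were *Pycr1* and *Cth*, where the shares were 6.23% and 6.64%. Nothing is read from these counts either. The markers of pluripotent cells, primitive endoderm, fibroblasts and trophectoderm moved with genotype in both multiplexes, as given above. For trophectoderm in the *Cdk8* multiplex this holds for the WT libraries fitted. The neuroectoderm markers moved with genotype in the *Ccnc* multiplex. The part of all these markers in the differences was not tested.

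Whether the ATRi effect differs between KO and WT was fitted as the interaction. This contrast was not itself used to choose the genes. It is the difference of the ATRi changes within genotypes, which were known in that choice, so it too is a description. None of the 10 genes was called in either multiplex by edgeR's quasi-likelihood test, and 0% of all genes were (395 and 255 at an unadjusted p under 0.05). None of the 10 genes was at an unadjusted p under 0.05, and DESeq2 called none of them. For *Gpt2* the difference was -0.07 log2 units (95% interval -0.40 to 0.25) for *Ccnc* KO and -0.12 (-0.38 to 0.14) for *Cdk8* KO. For *Mthfd2* it was -0.08 (-0.36 to 0.19) and -0.06 (-0.56 to 0.43). The highest values were those of *Phgdh*, 0.28 (-0.09 to 0.65), and *Pycr1*, 0.27 (-0.09 to 0.63), in the *Ccnc* multiplex. *Pycr1* was at 0.20 (-0.43 to 0.83) in the *Cdk8* multiplex. Some of these intervals, those of *Phgdh* and *Pycr1* in the *Ccnc* multiplex and of *Psph* and *Pycr1* in the *Cdk8* multiplex, reach differences as large as the *Gpt2* change itself. Only 1 WT library under ATRi enters each fit.

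**Figure D4:**
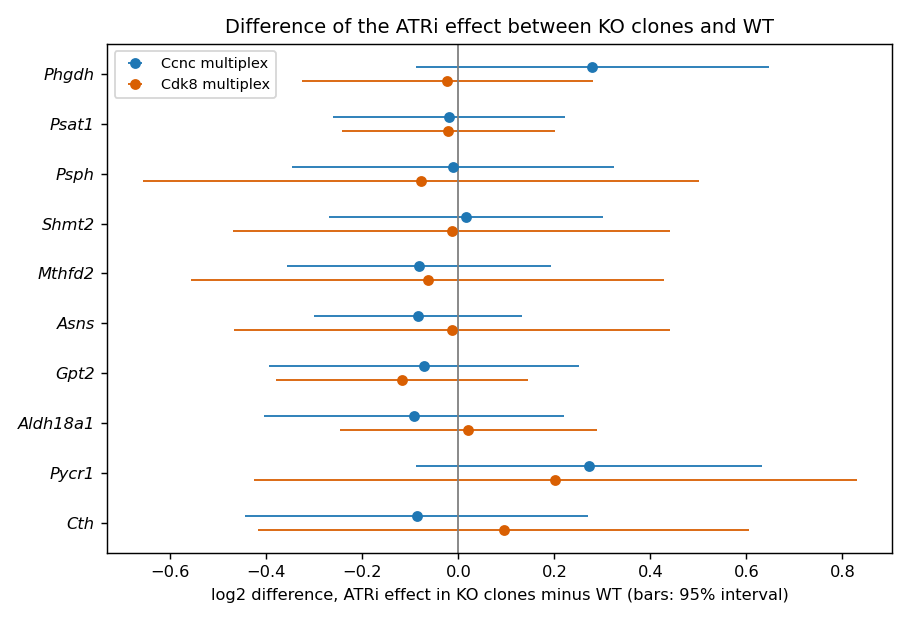
ATRi effect in KO clones minus that in WT, in log2 units (horizontal axis), with 95% intervals, for each gene in both multiplexes. Every interval includes 0, and those of *Psph* and *Pycr1* in the *Cdk8* multiplex, which reach -0.66 and 0.83, are the widest.

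The response of *Ccnc* KO and *Cdk8* KO clones was compared directly over their 12 libraries. This comparison also draws on ATRi changes known when the genes were chosen, and is a description. None of the 10 genes differed by edgeR's quasi-likelihood test, none was at an unadjusted p under 0.05, DESeq2 called none of them, and 0% of all genes were called (361 at an unadjusted p under 0.05). *Phgdh* had the largest difference, 0.30 log2 units higher in *Ccnc* KO (95% interval -0.00 to 0.59, adjusted p = 1.00). *Gpt2* differed by 0.08 (-0.17 to 0.33), *Psat1* by 0.01 (-0.17 to 0.19) and *Mthfd2* by 0.02 (-0.28 to 0.32). *Cth* had the lowest value, -0.10 (-0.48 to 0.27).

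The other enzymes of these pathways were listed by pathway, with earlier results of these data known. Of 71 such enzymes 64 were tested, and none was called for ATRi in either multiplex by edgeR's quasi-likelihood test. At an unadjusted p under 0.05 they were 10 and 12, and DESeq2, which gave an adjusted p for 62, called 2 in each multiplex, 1 higher and 1 lower. The filter of at least 1 count gave 3 in the *Ccnc* multiplex, all higher, and 0 in the other. With the clone as a replicate block they were 0 and 12, of which 8 were higher and 4 lower. Among the isozymes named above, *Pycrl* was at 0.03 ± 0.06 and -0.02 ± 0.06 log2 units, *Shmt1* at 0.10 ± 0.05 and 0.04 ± 0.08 and *Gpt* at -0.08 ± 0.10 and -0.10 ± 0.11. The median change of the 64 was 0.03 log2 units in the *Ccnc* and 0.02 in the *Cdk8* multiplex. By pathway, the medians in the *Ccnc* and *Cdk8* multiplexes were -0.00 and 0.03 for 19 enzymes of serine, glycine and folate metabolism, and 0.02 and -0.04 for 19 enzymes of asparagine, aspartate, alanine and glutamate metabolism. They were 0.14 and 0.01 for 11 of proline and ornithine metabolism and 0.06 and 0.03 for 15 of methionine and cysteine metabolism.

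For genotype, 2 of the 64 enzymes met the study's rule in both multiplexes. *Gad1*, the glutamate decarboxylase that makes GABA, fell, at -2.42 ± 0.26 log2 units (SE, adjusted p = 3.46e-05 by edgeR) in *Ccnc* KO and -1.69 ± 0.24 (adjusted p = 0.00609) in *Cdk8* KO. It was low throughout, at 1.10 to 1.79 CPM in the 3 WT libraries fitted in the *Ccnc* multiplex and 0.17 to 0.40 CPM in *Ccnc* KO clones. *P4ha2*, a collagen prolyl hydroxylase, rose by 1.30 ± 0.15 (adjusted p = 7.32e-05) and 1.79 ± 0.15 log2 units (adjusted p = 0.000863). It was at 6.76 to 10.2 CPM in those WT libraries and 17.9 to 26.4 CPM in *Ccnc* KO clones, and at 23.4 to 31.2 CPM in *Cdk8* KO clones. Neither gene was called in either multiplex without WT replicate 1, nor *Gad1* in the *Cdk8* multiplex with DMSO libraries alone. The part of the cell type markers that moved with genotype was not tested here either. At the adjusted p alone 11 of the 64 rose and 3 fell in *Ccnc* KO, and 5 rose and 2 fell in *Cdk8* KO.

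**Figure D5:**
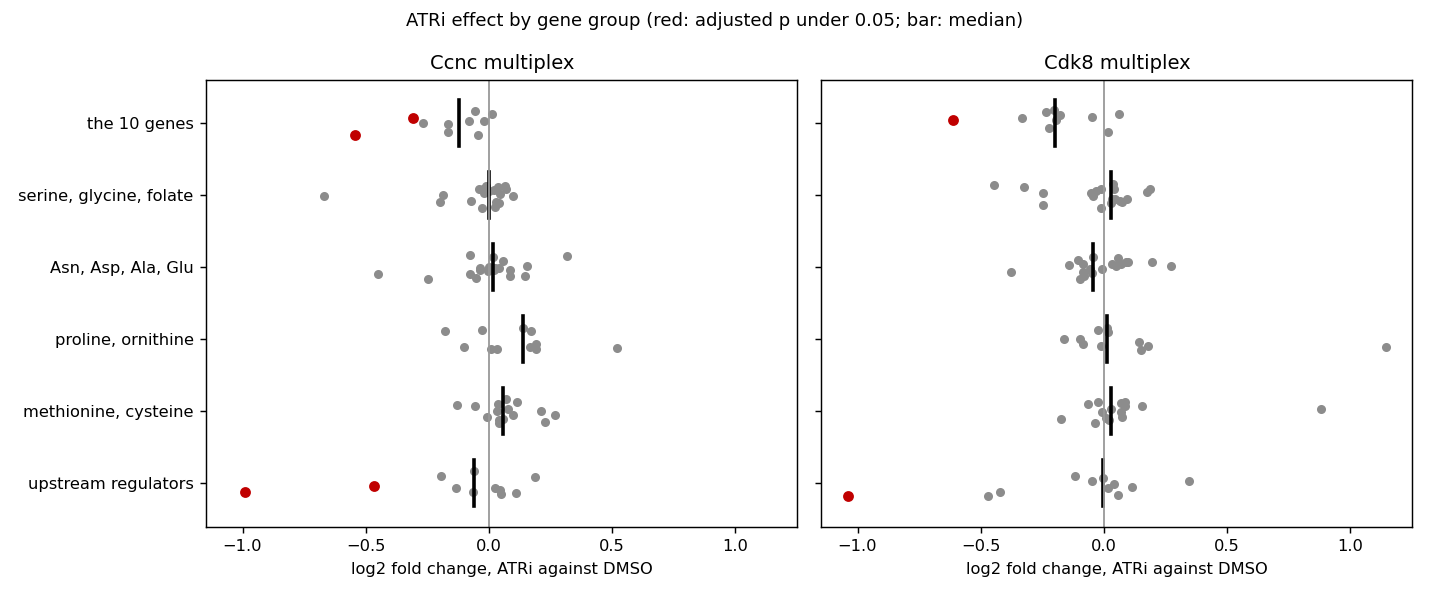
Log2 fold change of ATRi against DMSO (horizontal axis) for the 10 genes, the other enzymes by pathway and 11 genes listed as upstream regulators. There is 1 point per gene, with the group median as a bar and genes at an adjusted p under 0.05 in red. The medians of the 10 genes are -0.12 and -0.20, and *Trib3* lies furthest left, at -0.99 and -1.04.

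The 11 genes listed as upstream regulators of these enzymes were chosen with earlier results of these data known. Their values and p-values are therefore a description and not an independent test. Of these genes, *Trib3*, itself a target gene of ATF4 and so not read here as acting upstream, fell with ATRi in both multiplexes. The change was -0.99 ± 0.08 log2 units (SE, adjusted p = 3.61e-05 by edgeR) and -1.04 ± 0.07 (adjusted p = 0.000631). In the *Ccnc* multiplex *Trib3* was at 61.3 and 63.3 CPM in WT under DMSO and at 29.0 and 29.0 CPM under ATRi. The *Ccnc* KO clones were at 49.8, 47.2 and 46.3 CPM under DMSO and at 29.6, 22.7 and 22.6 CPM under ATRi, and the *Cdk8* KO clones at 47.9, 38.3 and 43.4 and then at 22.6, 20.2 and 22.0 CPM. Every ATRi library was below every DMSO library. *Trib3* was not called in the *Cdk8* multiplex without CDK8_C8 or without WT replicate 1. *Atf4* fell in the *Ccnc* multiplex, at -0.47 ± 0.09 log2 units (SE, adjusted p = 0.0298 by edgeR), and was at -0.42 ± 0.07 in the *Cdk8* multiplex (adjusted p = 0.0718, and 2.91e-05 with the clone as a replicate block). The *Ccnc* call was lost without CCNC_G2, without WT replicate 1 and with WT replicate 2 under ATRi included. *Atf4* was at 222 to 340 CPM under DMSO and 173 to 227 CPM under ATRi in the 9 libraries of the *Ccnc* multiplex fitted, and was lower under ATRi in all 6 KO clones. The other 9 regulators, the eIF2alpha kinase genes *Eif2ak1* to *Eif2ak4*, *Atf5*, *Cebpb*, *Myc*, *Mycn* and *Nfe2l2*, did not pass the test in either multiplex. *Trib3* was also lower in KO than in WT, at -0.32 ± 0.08 (adjusted p = 0.0201 by edgeR) and -0.50 ± 0.08 log2 units (adjusted p = 0.00768). *Atf4* was at -0.27 ± 0.10 (adjusted p = 0.0876 by edgeR) and -0.41 ± 0.07 (adjusted p = 0.0155), and neither gene reached the fold change of the study's rule. These fits enter the DMSO and ATRi libraries of a clone as separate, so the p-values do not measure the spread between clones alone. Under DMSO the 6 KO clones were at -0.32 to -0.72 for *Trib3* and -0.03 to -0.58 for *Atf4* against WT. Under ATRi CCNC_D1 was at 0.03 for *Trib3*. The difference in ATRi effect between KO and WT was 0.15 and 0.12 log2 units for *Trib3* and 0.04 and 0.12 for *Atf4*, and was called for neither by edgeR, at an adjusted p of 1.00 each.

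Over the 18 libraries fitted, the mean pattern of the 10 genes was described by centring log2 CPM within each multiplex. *Psat1* lay nearest to that mean, at a root-mean-square difference of 0.048 log2 units, followed by *Aldh18a1* at 0.081 and *Psph* at 0.094. *Gpt2* at 0.27, *Pycr1* at 0.27 and *Cth* at 0.34 lay furthest, beyond the median of 0.17 over 9035 genes, which include the 10. Each of the 10 genes also enters the mean it is compared with. The 8 other genes nearest to the mean were *Smg6*, *Yars*, *Nars*, *Vangl2*, *Slc6a6*, *Tbkbp1*, *Pik3cb* and *Pnldc1*, at 0.054 to 0.066 log2 units. The 18 libraries share WT RNA between multiplexes and pairs of libraries per clone, so this likeness is a description.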

How the data were processed

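Poly(A) RNA of mESCs was made into directional libraries and sequenced single-end. The authors trimmed reads with Trimmomatic 0.38, aligned them with HISAT2 2.1.0 to GRCm38.p6 and counted them per gene with featureCounts 2.0.1. They deposited unnormalised read counts in 1 matrix per multiplex, with 40 columns for the lanes of 20 libraries. Matrices of regularised log values were not used. Here, counts of the 2 lanes were summed per library, giving 30899823 to 67274049 counts (median 41972557), and groups were taken from the labels. Levels are CPM on TMM-scaled library sizes.

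Genes kept by filterByExpr (genotype by treatment) were tested with edgeR 4.0.16 (quasi-likelihood) in R 4.3.3, with Benjamini-Hochberg adjustment over all genes. Genes were called at an adjusted p under 0.05, and for genotype only where the fold change exceeded 2 or was under 0.5, the rule of the study. The study's exclusion of the ATRi library of WT replicate 2 was kept. The fits were ATRi beside genotype, genotype beside treatment, their interaction, ATRi within each KO, and the ATRi effect of *Ccnc* KO against that of *Cdk8* KO clones. All 10 genes passed the filter in every fit. The edgeR fit was tested on simulated data. P-values of the main fits measure the spread between libraries. Those fits enter the DMSO and ATRi libraries of a clone as separate, so their genotype p-values do not measure the spread between clones alone. For genotype, 2284 and 806 genes passed the adjusted p in the *Ccnc* and *Cdk8* multiplexes. With the clone as a replicate block 1885 and 237 did. A difference between multiplexes was not fitted directly.

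The 10 genes and the lists of other enzymes, regulators and markers were chosen with earlier results of these data known. Beside the 10 genes, those named are *Atf4*, list members called the same way in both multiplexes, and the 8 genes nearest to the mean pattern of the 10 among genes of at least 10 CPM. The targeted genes are named too, and other names are said to be chosen after their values were seen. Some genes of these lists enter the counts but are not reported here by name.

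DMSO and ATRi libraries of 1 clone share a cell line and are paired by it. Their deviations from the group means correlated at 0.04 to 0.20 in *Ccnc* KO clones, 0.20 to 0.65 in *Cdk8* KO clones, and 0.22 and 0.20 in WT of the 2 multiplexes. Alternatives were size factors of the RLE kind, DESeq2 1.42.0, a filter of at least 1 count, the clone as a replicate block (limma 3.58.1 with a random effect for genotype), WT replicate 2 under ATRi included, DMSO libraries alone, and each replicate left out.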

Additional observations from a re-analysis of the deposited data

Results flagged for a closer look

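*Cth*, the cystathionine gamma-lyase gene, moved in opposite directions with ATRi in *Cdk8* KO clones and WT of the *Cdk8* multiplex. The change was 0.08, 0.09 and 0.11 log2 units in CDK8_B9, CDK8_H4 and CDK8_C8 (mean 0.092), and -0.01 and -0.34 in WT replicates 1 and 2. In the *Ccnc* multiplex WT replicate 1 was at 0.04. Over all libraries this difference is given without a test, since it rests on WT replicate 2 under ATRi, the library with 3.32% of counts from mitochondrial genes. The part of that library in the difference was not tested. Without that library the interaction was 0.09 log2 units (95% interval -0.42 to 0.61). Every group held 2 or 3 libraries, too few to look for single outlying libraries.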

How the results depend on the processing

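No value that passed its threshold changed direction under any alternative run. With DESeq2 the genes called of the 10 were 5 for ATRi in the *Cdk8* multiplex (1 with edgeR), 2 within *Ccnc* KO and 1 within *Cdk8* KO (0 each with edgeR). Over all genes DESeq2 called 651 and 378 for ATRi in the *Ccnc* and *Cdk8* multiplexes (206 and 16 with edgeR), 321 for genotype in the *Cdk8* multiplex (197), and 200 and 58 within *Ccnc* and *Cdk8* KO (15 and 0). The filter of at least 1 count gave 845 and 41 for ATRi, 345 for genotype in the *Cdk8* multiplex, 20 for the interaction in the *Ccnc* multiplex (0), and 462 and 4 within KO, with 3 and 1 of the 10 genes. The replicate block gave 451 and 2107 for ATRi (6 of the 10 genes in the *Cdk8* multiplex), 66 for genotype and 4 for the interaction in the *Cdk8* multiplex, and 109 and 1193 within KO, with 1 and 6 of the 10, and moved the median interaction of the 10 genes to 0.010 and 0.017 log2 units. Apart from these and the changes given with the results above, it moved no count of calls by over 1.5 times. With WT replicate 2 under ATRi included, 41 genes and 1 of the 10 were called for ATRi in the *Ccnc* multiplex, and the medians of the 10 were -0.16 and -0.23 for ATRi, -0.10 for genotype in the *Ccnc* multiplex and 0.073 and 0.056 for the interaction. DMSO libraries alone gave 171 genes for genotype of *Ccnc* KO (360) and 4 of *Cdk8* KO. The cause of these shifts was not tested.

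Leaving out 1 replicate gave 1 to 3 and 0 to 1 of the 10 genes for ATRi, 21 to 250 and 0 to 29 genes over all, and medians of -0.15 to -0.069 and -0.21 to -0.19. For genotype it gave 91 to 362 and 1 to 455 genes, and medians of -0.20 to -0.062 and -0.23 to -0.066. For the interaction the medians were -0.045 to 0.023 and -0.015 to 0.017. Within KO it gave 3 to 6 and 0 genes and medians of -0.09 to -0.07 and -0.21 to -0.18, and for *Ccnc* against *Cdk8* KO medians of -0.01 to 0.05. The interaction without WT replicate 1 could not be fitted, since no WT library under ATRi would be left. With 3 clones per KO and 2 WT replicates, small differences could not be told from the spread between clones.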

Other observations

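Among enzymes of the same pathways 5, chosen after their values were seen, had differences of the same sign in both multiplexes and were not called in either by edgeR as fitted above. With the clone as a replicate block all 5 named here were called for ATRi in the *Cdk8* multiplex and 0 in the *Ccnc* multiplex. In the *Ccnc* multiplex DESeq2 called *Aspg* and *Odc1*, and the filter of at least 1 count called *Azin1* and *Mat2a*, and in the *Cdk8* multiplex DESeq2 called *Azin1*. *Aspg*, an asparaginase gene, was low throughout, at 2.41 to 5.92 CPM over all libraries. It was lower under ATRi in 6 of 6 KO clones, by 14.3% to 37.1% of the DMSO level, as were 9.26% of all genes in direction. The fitted changes were -0.45 ± 0.12 and -0.38 ± 0.15 log2 units (SE, adjusted p = 0.0900 and 0.389 by edgeR). *Mat2a*, the S-adenosylmethionine synthetase gene, was at 0.27 ± 0.09 and 0.15 ± 0.06 (adjusted p = 0.150 and 0.345 by edgeR). *Odc1*, the ornithine decarboxylase of polyamine synthesis, was at 0.17 ± 0.05 and 0.15 ± 0.07, and *Azin1*, which encodes an inhibitor of its antizyme, at 0.19 ± 0.07 and 0.18 ± 0.04 (adjusted p = 0.109, 0.418, 0.170 and 0.142 by edgeR, in that order). *Arg2*, the mitochondrial arginase gene, had the highest fitted change of the 64 enzymes in both multiplexes, at 0.52 ± 0.40 and 1.14 ± 0.29 (adjusted p = 0.560 and 0.185 by edgeR).

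*Mycn*, chosen after its values were seen, was the regulator with the largest genotype difference in *Ccnc* KO clones. It was at -0.80 ± 0.06 log2 units there (adjusted p = 1.93e-06 by edgeR) and at -0.44 ± 0.19 in *Cdk8* KO clones (adjusted p = 0.208). The fits enter the DMSO and ATRi libraries of a clone as separate. The *Cdk8* KO clones differed, with CDK8_B9 at -0.91, CDK8_C8 at -0.49 and CDK8_H4 at -0.16 against WT under DMSO. CDK8_H4 was at 0.04 under ATRi. *Mycn* was below the fold change of the study's rule in both multiplexes.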
